A study of Mus musculus with 8 samples.

Results

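The genes described here mark the nerve cells of the cardiac ganglia and the Schwann cells that accompany their axons, measured in the hearts of mouse embryos at E18.5, either wild-type (WT) or lacking SIRT1 through a germ-line knockout of the whole body (SIRT1 KO). They were chosen by symbol as *Phox2a*, *Th*, *Dbh*, *Prph*, *Stmn2*, *Elavl4*, *Tubb3* and *Sox10*, and every array probe whose accession maps to one of them was kept. This gave 10 probes of 8 genes, out of 41174 probes, of which 28223 could be assigned to 19096 genes. Embryos of both genotypes were on the C57BL/6 background, given as C57BL/6J in the methods. They came from heterozygous intercrosses of chow-fed parents, and both sexes were taken. From each genotype 4 hearts were hybridized to one-color Agilent arrays, 1 heart per array. The knockout is labelled as one of the whole body, so no cell type was targeted. In whole hearts, fewer cells of a type and less RNA per cell cannot be told apart.

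The intracardiac ganglia arise from neural crest cells that reach the heart along the nerves and the great vessels. PHOX2A is a homeodomain factor of autonomic neurons, TH and DBH are enzymes of noradrenaline synthesis, peripherin is an intermediate filament of peripheral neurons, STMN2 regulates microtubules in growing axons, ELAVL4 is a neuronal RNA-binding protein and TUBB3 is the neuronal beta-tubulin. SOX10 is a transcription factor of the neural crest that is kept in Schwann cells and melanocytes and is lost from neurons.

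All values below are log2 processed signal relative to the 75th percentile of the same array, so that a negative value lies below that percentile. That percentile corresponded to 939 to 1033 intensity units in WT and to 777 to 906 in SIRT1 KO. A probe was tested where at least 4 of the 8 arrays were well above background by the scanner software's mark, and it is called where the adjusted p from limma is under 0.05 after Benjamini-Hochberg adjustment over all 25615 probes tested. Slide and scan day each hold 1 genotype, and these cannot be told apart from genotype. The targeted gene did not fall in the arrays labelled SIRT1 KO. The *Sirt1* probe A_52_P358612 had a log2 fold change of 0.54 (adjusted p = 0.0323, limma) and A_51_P141152 had -0.11 (adjusted p = 0.589, limma), so the hearts are named by their labels throughout. Where these probes lie relative to the deleted part is not given in the sources used here, so the values settle nothing about the labels. Over all tested probes, 1017 were called higher in SIRT1 KO and 233 lower. The split was 672 to 379 with quantile normalization, 749 to 314 with cyclic loess, 676 to 1228 with median scaling and 639 to 5713 without scaling. The median log2 fold change of all tested probes was 0.01, and it moved to -0.12 with median scaling and to -0.21 without scaling.

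*Sox10* was the only one of the 8 genes to pass the test, and it was higher in the hearts labelled SIRT1 KO. *Elavl4* was lower and *Tubb3* higher in those hearts, both short of the threshold, while *Phox2a* and *Stmn2* had intervals that span 0. *Th*, *Dbh* and *Prph*, which would mark noradrenergic and peripheral nerve cells, were well above background on no array. Of the 10 probes, 5 were well above background on all 8 arrays and were tested, and 5 were not tested. Among the 5 tested probes 1 was called, in a comparison in which 4.88% of all tested probes were called, 3.97% of them in the direction of *Sox10* and 0.91% in the other. All 5 lay below a log2 signal of -1.5, a level set after the values were seen, and among all probes below it 6.99% were called higher and 1.02% lower.

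**Figure D1:**
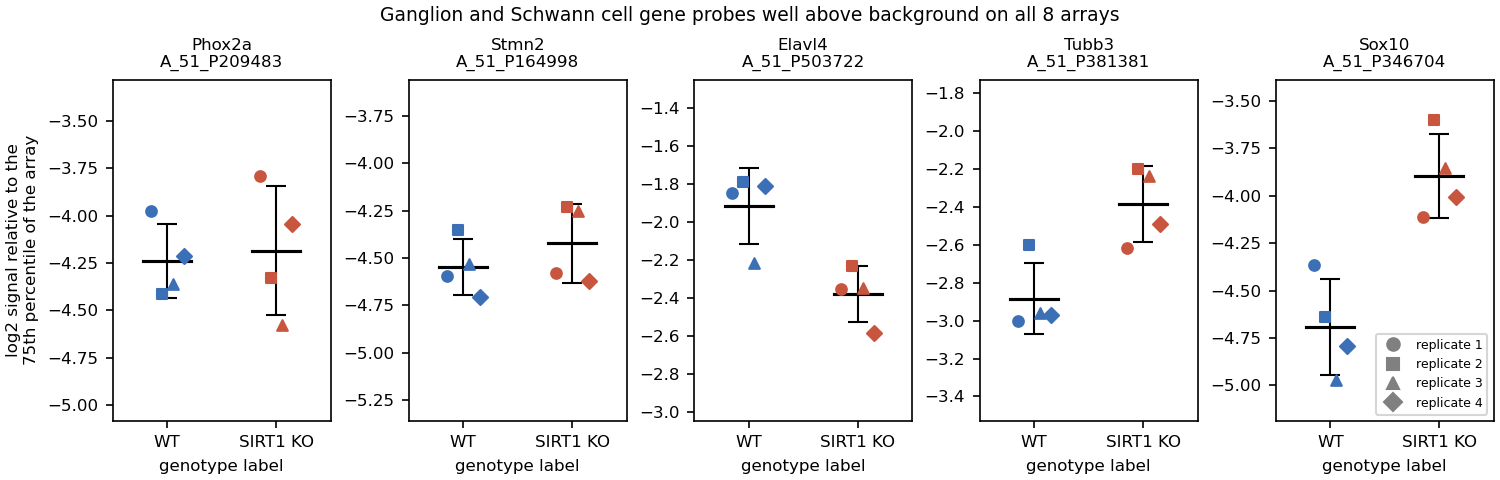
Log2 signal relative to the 75th percentile of the array (y axis, every panel spanning the same range) for the 5 probes well above background on all 8 arrays, by genotype label (x axis). Each symbol is 1 heart, bars are the mean and SD of 4 hearts, and the genotypes do not overlap for *Elavl4* and *Sox10*.

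For *Sox10*, probe A_51_P346704 gave -4.37, -4.64, -4.97 and -4.79 in WT replicates 1 to 4 and -4.11, -3.60, -3.85 and -4.01 in SIRT1 KO replicates 1 to 4. Every heart labelled SIRT1 KO lay above every WT heart, and the nearest values belonged to replicate 1 of each genotype. The mean was -4.69 ± 0.26 (SD, n = 4) in WT and -3.89 ± 0.22 (SD, n = 4) in SIRT1 KO, which is a log2 fold change of 0.80 (SE, the standard error, 0.15, 95% interval 0.46 to 1.14, adjusted p = 0.0199 with limma), or 1.74-fold. The exact two-sided permutation test gave p = 0.0286, the smallest that 4 against 4 allows, and the genotypes failed to overlap for 13.7% of all tested probes. The probe ranked 627 of 25615 by p. It is a dim probe. Its spots read 79 to 96 raw units over a local background of 40 to 45 on the WT arrays, and 97 to 118 over 36 to 51 on the SIRT1 KO arrays.

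The direction of *Sox10* held in 17 of 17 alternative settings and the call in 13 of 17. For the tested genes, no filter, the filter on all 8 arrays, the methods' analysis of variance and the replicate block leave the fold change unchanged by construction. Leaving out 1 array cannot turn the sign where the genotypes do not overlap, as here and for *Elavl4* below. The call was lost with the methods' analysis of variance (adjusted p = 0.0795). Without WT replicate 2, 3 or 4 the adjusted p from limma was 0.0538, 0.0545 and 0.0560, with log2 fold changes of 0.82, 0.71 and 0.77. With normexp background correction, with an offset of 50 units, the log2 fold change was 0.36 (adjusted p = 0.0327, limma). With quantile normalization, cyclic loess, median scaling and no scaling it was 0.63, 0.65, 0.67 and 0.58. The adjusted p from limma was then 0.0477, 0.0473, 0.0322 and 0.0355. Relative to the median of all tested probes the value was 0.79 as reported and under the last 2, 0.65 with quantile normalization and 0.66 with cyclic loess. A second *Sox10* probe, A_52_P192625, was well above background on none of the arrays. It read -7.90, -7.97, -7.89 and -7.14 in the WT hearts and -7.71, -7.92, -7.40 and -7.88 in the hearts labelled SIRT1 KO, so that the genotypes overlapped, and it gives no second measurement of the difference.

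The melanocyte genes *Dct*, *Tyrp1* and *Pmel* were measured beside *Sox10*, since melanocytes also express it. All 3 tested genes of that list had values above 0, and none passed the test. Among the alternatives, 1 gene of the list passed with normexp background correction and 1 without SIRT1 KO replicate 4. *Tyr*, the tyrosinase that defines the lineage, was well above background on no array. *Pmel*, a melanosome matrix protein, had a log2 fold change of 0.52 (SE 0.18, adjusted p = 0.139, limma), and *Dct*, dopachrome tautomerase, had 0.34 (SE 0.18, adjusted p = 0.317, limma). The summed level of the list, in multiples of the 75th percentile, ran from 1.44 to 1.94 in WT, and 3 of the 4 hearts labelled SIRT1 KO lay above that range, at 2.20, 2.79 and 2.32, while replicate 4 lay within it. Most of this sum was *Dct*, with 1.22 to 1.68 in WT and 1.28 to 2.37 in SIRT1 KO. Its part in the *Sox10* value was not tested.

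*Tubb3* is carried by 10 spots of 1 probe on each array, which makes it the most densely measured of the tested genes. The probe A_51_P381381 read -3.00, -2.60, -2.96 and -2.97 in WT replicates 1 to 4 and -2.62, -2.20, -2.24 and -2.49 in SIRT1 KO replicates 1 to 4. WT replicate 2 stood above the other WT hearts and overlapped SIRT1 KO replicate 1. The mean was -2.88 ± 0.19 (SD, n = 4) in WT and -2.39 ± 0.20 (SD, n = 4) in SIRT1 KO, a log2 fold change of 0.50 (SE 0.13, 95% interval 0.21 to 0.79), or 1.41-fold. It did not pass the threshold (adjusted p = 0.0621, limma), and the exact permutation test gave p = 0.0571. Among the spots of 1 array the SD of log2 signal was 0.0923 to 0.192 in WT and 0.105 to 0.228 in SIRT1 KO, against an SD of 0.19 and 0.20 between the hearts. The value was higher in 17 of 17 alternatives and passed in 4 of them. It was 0.36 with median scaling and 0.28 without scaling (adjusted p = 0.145, limma), and relative to the median of all tested probes it was 0.49 as reported and under both. Without WT replicate 2 it was 0.59 (adjusted p = 0.0425, limma).

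**Figure D2:**
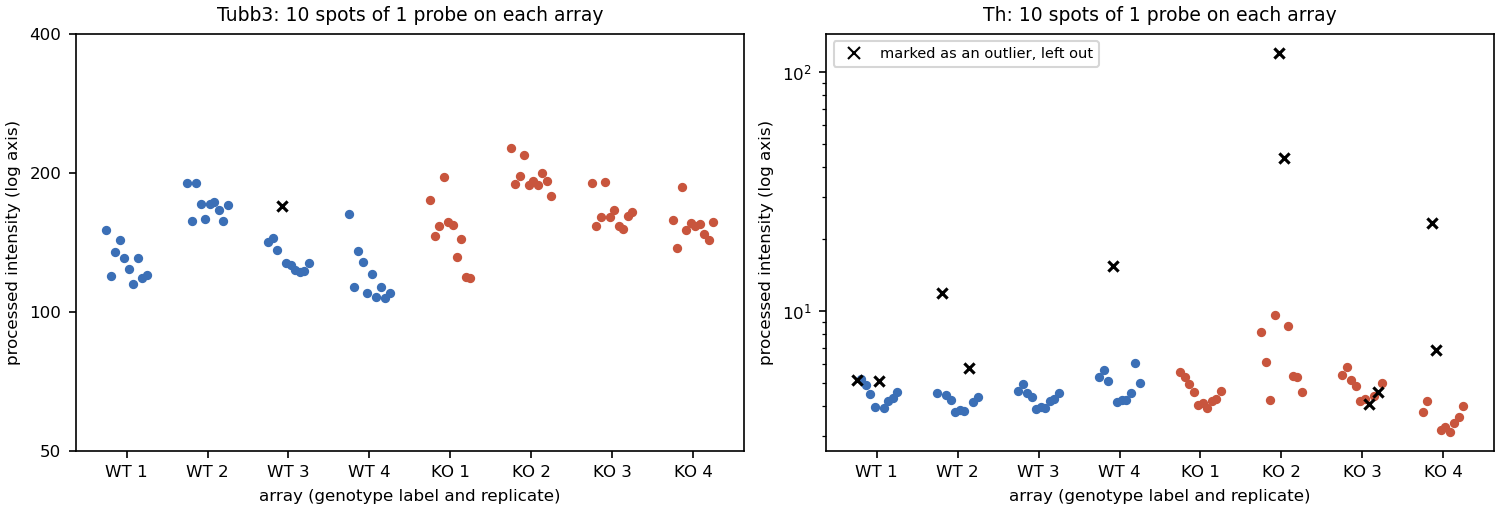
Processed intensity (y axis, log scale) of the 10 spots of the *Tubb3* and *Th* probes on each array (x axis), with crosses for spots that the scanner software marked as outliers. The *Tubb3* spots of SIRT1 KO replicate 2 are the brightest group, and the *Th* spots lie near 3 to 6 units except on SIRT1 KO replicate 2 and for single marked spots.

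*Elavl4* had its value on the other side of 0. The probe A_51_P503722 read -1.84, -1.79, -2.22 and -1.81 in WT replicates 1 to 4 and -2.35, -2.23, -2.35 and -2.58 in SIRT1 KO replicates 1 to 4. The genotypes did not overlap, but WT replicate 3 at -2.22 and SIRT1 KO replicate 2 at -2.23 nearly met. The mean was -1.91 ± 0.20 (SD, n = 4) in WT and -2.38 ± 0.15 (SD, n = 4) in SIRT1 KO, a log2 fold change of -0.46 (SE 0.12, 95% interval -0.73 to -0.20), or 0.725 of the WT level. This missed the threshold (adjusted p = 0.0607, limma), with p = 0.0286 by the exact permutation test. With normexp the log2 fold change was -0.27 (adjusted p = 0.130, limma), and the genotypes overlapped. WT replicate 3, at -1.84, then lay below SIRT1 KO replicates 1 to 3, at -1.72, -1.71 and -1.78. *Elavl4* was lower in 17 of 17 alternatives and passed in 5, among them the fit without WT replicate 3, where it was -0.56 (adjusted p = 0.0288, limma). Relative to the median of all tested probes the difference was -0.47 as reported, -0.47 also under median scaling or no scaling, and -0.50 with quantile normalization and with cyclic loess. A second *Elavl4* probe, A_51_P503729, was well above background on 3 WT arrays and on no array labelled SIRT1 KO. It read -5.63, -5.61, -5.59 and -6.28 in WT and -5.99, -5.73, -7.14 and -7.09 in SIRT1 KO, where WT replicate 4 fell among the hearts labelled SIRT1 KO. No fold is given for it, since its WT mean of -5.78 lies below -5.62, the mean over the arrays labelled SIRT1 KO of either the array's detection bound (its dimmest probe that carries the mark) or the probe's own value, whichever is higher.

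*Phox2a* and *Stmn2*, the 2 tested members most closely tied to autonomic neurons and growing axons, showed no difference beyond the spread between hearts. *Phox2a* read -3.98, -4.42, -4.36 and -4.21 in WT and -3.79, -4.33, -4.57 and -4.04 in SIRT1 KO, and the ranges overlapped. Its log2 fold change was 0.06 (SE 0.17, 95% interval -0.33 to 0.44, adjusted p = 0.881, limma), and its sign turned with quantile normalization, cyclic loess, median scaling and no scaling. Relative to the median of all tested probes it stayed at 0.05 under the last 2 of these, and was -0.09 with quantile normalization and -0.08 with cyclic loess. *Stmn2* read -4.59, -4.35, -4.53 and -4.70 in WT and -4.58, -4.23, -4.25 and -4.62 in SIRT1 KO, again with overlap. Its log2 fold change was 0.12 (SE 0.12, 95% interval -0.15 to 0.40, adjusted p = 0.584, limma), with the sign turned under the same 4 settings. Relative to that median it stayed at 0.12 under median scaling and no scaling, and was -0.03 with quantile normalization and -0.02 with cyclic loess. Changes of the size seen for *Sox10* lie outside both intervals.

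**Figure D3:**
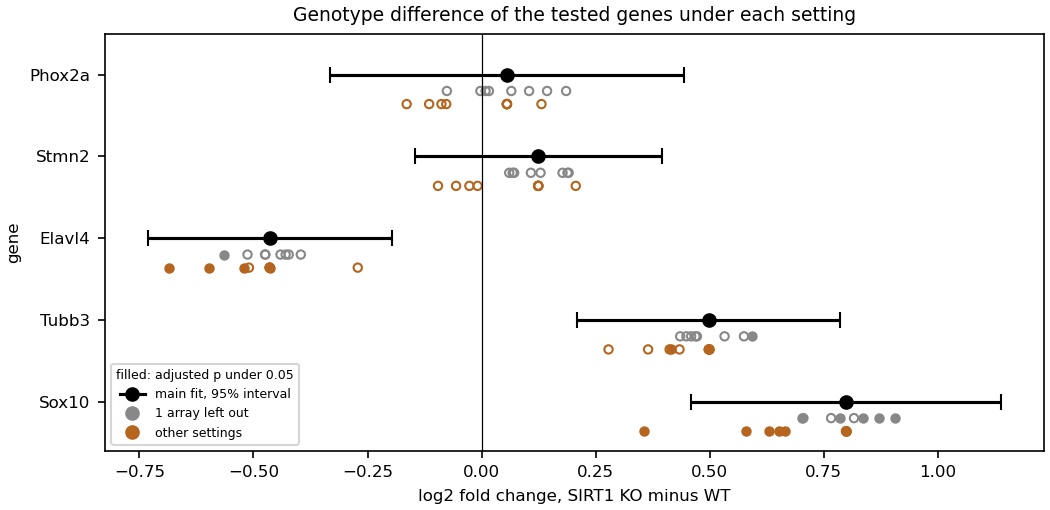
Log2 fold change, SIRT1 KO minus WT (x axis), of the 5 tested genes (y axis). Black points are the limma fit with its 95% interval, grey points leave out 1 array, brown points are other settings, and filled points pass an adjusted p of 0.05. *Sox10* and *Tubb3* stay above 0 and *Elavl4* below 0 in every setting drawn, and *Phox2a* and *Stmn2* lie on both sides.

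*Th*, *Dbh* and *Prph* stayed below the well-above-background mark on all 8 arrays. The *Th* probe A_51_P486223, also carried by 10 spots, averaged 4.44, 4.15, 4.33 and 4.89 intensity units in WT replicates 1 to 4 and 4.54, 6.24, 4.88 and 3.56 in SIRT1 KO replicates 1 to 4. Averaged over the spots used on each array, its raw signal was 51.1 to 54.2 units on the WT arrays, over a mean local background of 43.4 to 55.4. On the SIRT1 KO arrays it was 48.6 to 59.6 units over 44.5 to 47.4. On SIRT1 KO replicate 2 all 10 spots were marked positive and significant, against 0 to 2 of 10 on each of the other arrays. *Prph* read 9.92, 15.1, 15.6 and 12.2 intensity units in WT and 7.82, 19.0, 12.4 and 18.6 in SIRT1 KO, with overlap, and was marked positive and significant on 8 of 8 arrays but well above background on none.

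*Dbh*, the enzyme that converts dopamine to noradrenaline, was the only one of the 3 members below the mark on every array, *Th*, *Dbh* and *Prph*, whose genotypes separated. Its processed intensity was 4.23, 4.02, 4.13 and 4.42 in WT replicates 1 to 4 and 11.96, 9.41, 10.2 and 11.91 in SIRT1 KO replicates 1 to 4. Both groups are below the level counted as well above background, so no fold is given. Among all 12452 probes well above background on no array, 4.32% did not overlap between the genotypes. The spot was marked positive and significant on 0 of 4 WT arrays and on 4 of 4 SIRT1 KO arrays. With no filter on dim probes it passed the test (adjusted p = 0.00315, limma), where 2.4% of all probes did. The raw spot read 57, 55, 55 and 50.5 in WT over a local background of 56.5, 56.5, 46 and 43. In SIRT1 KO it read 65, 63.5, 63.5 and 64.5 over 56.5, 59, 57.5 and 61, so the local background around this spot was as high as or higher than on any WT array. With normexp correction, which uses that local background, the log2 values were -3.89, -4.00, -3.85 and -3.69 in WT and -3.38, -3.84, -3.59 and -3.78 in SIRT1 KO, and the genotypes overlapped.

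**Figure D4:**
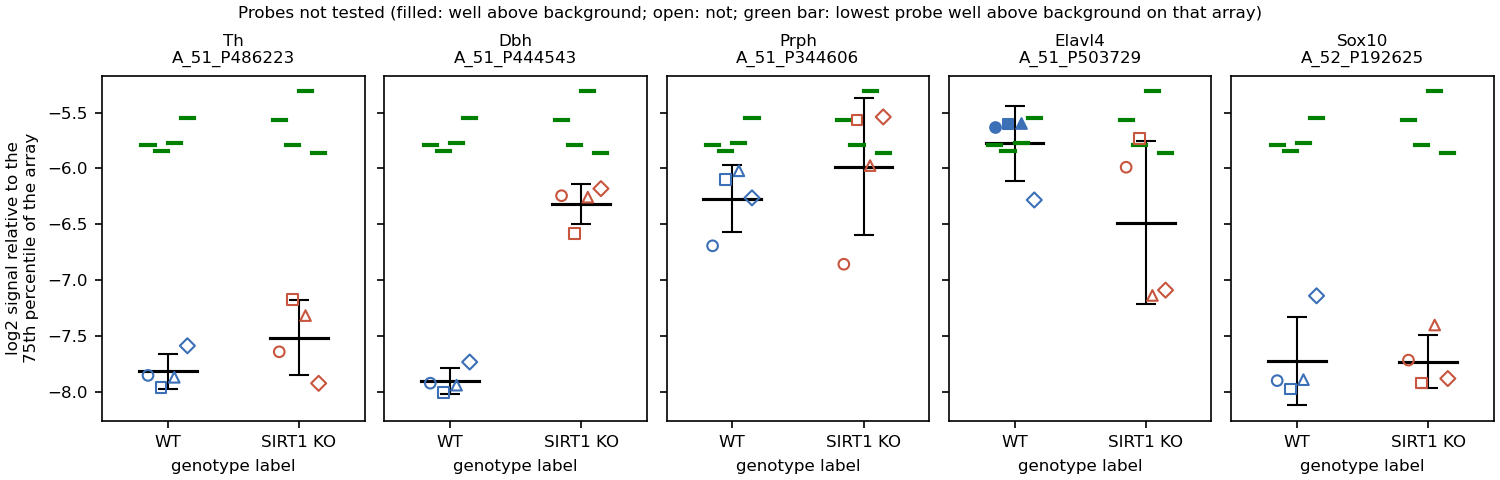
Log2 signal relative to the 75th percentile of the array (y axis) for the 5 probes that were not tested, by genotype label (x axis). Filled symbols are well above background, open symbols are not, green bars give the lowest probe well above background on each array, and the *Dbh* symbols lie below the bars in both genotypes.

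RefSeq promoter windows were available for 6 of the 8 genes, and 4 are shown, each as the 250 bases before the annotated start on GRCm38.p6, read on the strand of the gene. *Th* and *Prph* are shown as members below the well-above-background mark whose windows hold the cyclic AMP response element or the TATA box, and *Elavl4* and *Tubb3* because among the tested neuronal members they have the largest differences, in opposite directions. Capitals mark the cyclic AMP response element TGACGTCA, the E-box CANNTG and the TATA box TATAAA, searched on both strands, and no capitals mean that none of these letters occur in that window. The windows are chr7:142899996-142900245 on the minus strand for *Th*, chr15:99054924-99055173 on the plus strand for *Prph*, chr4:110287528-110287777 on the minus strand for the second of 4 listed starts of *Elavl4*, and chr8:123411303-123411552 on the plus strand for *Tubb3*.
Th: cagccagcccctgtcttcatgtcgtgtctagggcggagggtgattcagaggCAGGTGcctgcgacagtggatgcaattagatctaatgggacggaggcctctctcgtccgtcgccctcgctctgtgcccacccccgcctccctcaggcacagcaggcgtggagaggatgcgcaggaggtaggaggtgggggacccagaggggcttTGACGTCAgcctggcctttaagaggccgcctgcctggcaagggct
Prph: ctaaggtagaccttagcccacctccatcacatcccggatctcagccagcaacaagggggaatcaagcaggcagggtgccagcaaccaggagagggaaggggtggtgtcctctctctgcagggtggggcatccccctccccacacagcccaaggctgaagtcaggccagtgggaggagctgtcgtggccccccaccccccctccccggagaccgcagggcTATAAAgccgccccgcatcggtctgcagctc
Elavl4: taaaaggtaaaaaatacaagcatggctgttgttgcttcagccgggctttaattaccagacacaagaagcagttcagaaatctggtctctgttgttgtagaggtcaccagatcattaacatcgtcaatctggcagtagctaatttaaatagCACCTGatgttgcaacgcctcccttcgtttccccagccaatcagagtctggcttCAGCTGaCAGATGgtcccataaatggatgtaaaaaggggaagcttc
Tubb3: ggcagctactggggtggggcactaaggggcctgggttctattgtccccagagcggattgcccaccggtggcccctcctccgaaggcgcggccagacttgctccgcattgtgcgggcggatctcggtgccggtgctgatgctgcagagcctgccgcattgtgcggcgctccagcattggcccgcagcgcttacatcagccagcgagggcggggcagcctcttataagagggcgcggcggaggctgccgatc
The *Th* window holds the cyclic AMP response element 45 bases before the start and 1 E-box 199 bases before it. The *Prph* window holds a TATA box 31 bases before the start. The window of *Dbh*, which is not printed, holds 2 E-boxes, at 165 and 73 bases, and neither of the other motifs. The *Elavl4* window holds 3 E-boxes, the kind of site that basic helix-loop-helix factors bind, at 100, 46 and 39 bases before the start. The 4 listed starts of *Elavl4* hold 0, 3, 3 and 1 E-boxes. Of 32851 promoter windows of the same length, 1.55% hold the cyclic AMP response element, 66.2% an E-box and 12.4% the TATA letters. A match is a description of the letters only.

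The wider set of autonomic neuron genes was partly below the mark, with 17 of 34 genes well above background on all 8 arrays. Its tested genes were split between the directions. Of 34 genes on the array 18 were tested and 11 were well above background on no array, among them the noradrenaline transporter *Slc6a2*, the receptor *Ret* and the ganglionic nicotinic subunit *Chrna3*. *Ddc*, the decarboxylase that acts between TH and DBH and is named after its value was seen, was well above background on all 8 arrays, at a log2 signal of 4.12 in WT and 3.89 in SIRT1 KO. Its brightest probe was not called (-0.23, adjusted p = 0.402, limma), while 1 of its 2 tested probes was called, lower. Of the 18, 8 had values above 0 and 10 below, 1 was called higher and 1 lower, and the median log2 fold change was -0.05. The gene called higher, *Npy*, entered the test through the SIRT1 KO arrays, being well above background on only 1 WT array. Over the brightest probe of all 13594 genes tested, 4.58% were called, 3.69% higher and 0.897% lower, with a median of -0.01. The summed level of the list ran from 24.2 to 28.7 in WT and from 21.8 to 27.6 in SIRT1 KO, of which *Ddc* made up 14.9 to 20.0 and 12.9 to 19.3. Without *Ddc* it was 8.14 to 9.32 in WT and 8.23 to 8.91 in SIRT1 KO.

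*Npy*, a peptide co-stored with noradrenaline, read -5.54, -5.17, -5.42 and -5.49 in WT and -4.71, -3.53, -4.56 and -4.54 in SIRT1 KO, with SIRT1 KO replicate 2 far above the rest. Its log2 fold change was 1.07 (SE 0.24, adjusted p = 0.0383, limma), with 1 WT array and 4 SIRT1 KO arrays well above background. It thus entered the test through the arrays on which it is high, 3 of its 4 WT values lie below the mark, and neither the fold nor the call is a firm measure. With normexp the value was 0.49. The call of *Npy* was lost without any 1 of the 4 WT replicates (adjusted p 0.0718 to 0.0964, limma) and without SIRT1 KO replicate 4 (adjusted p = 0.0569, limma), and it held in 7 of 16 alternatives.

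*Slc5a7*, the choline transporter of cholinergic terminals, fell. It read -3.58, -2.95, -3.19 and -3.47 in WT and -4.46, -3.85, -4.11 and -4.82 in SIRT1 KO, with no overlap and a log2 fold change of -1.01 (SE 0.22, adjusted p = 0.0322, limma). Without WT replicate 2, 3 or 4 or SIRT1 KO replicate 1 the adjusted p from limma was 0.0887, 0.0904, 0.0594 and 0.0854, and the call held in 11 of 17 alternatives. With normexp the value was -0.42. The other cholinergic genes of the list, choline acetyltransferase *Chat* and the vesicular transporter *Slc18a3*, were not tested, with *Chat* well above background on 1 array of each genotype and *Slc18a3* on none.

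Genes that neurons of any kind use were mostly within the spread between hearts. In limma 6 of 23 tested genes had an unadjusted p under 0.05, as did 5504 of all 25615 probes tested. Of 36 pan-neuronal genes on the array 23 were tested, 15 with values above 0 and 8 below, with a median log2 fold change of 0.03, and 2 were called, both higher, against 3.69% called higher over the brightest probe of all genes and 6.99% among probes below a log2 signal of -1.5, where both lie. *Ncam1*, a cell adhesion molecule named after its values were seen, had 1 of 6 tested probes called, which was not its brightest. *Kif5a*, a kinesin of axonal transport, read -2.24, -2.38, -2.67 and -2.45 in WT and -1.78, -1.54, -1.86 and -1.47 in SIRT1 KO, without overlap. Its log2 fold change was 0.77 (SE 0.12, adjusted p = 0.00876, limma), and it was called in 17 of 17 alternatives. *Eno2*, the neuronal enolase, read -3.36, -3.68, -3.77 and -3.65 in WT and -2.66, -2.97, -3.06 and -3.04 in SIRT1 KO, a log2 fold change of 0.68 (SE 0.12, adjusted p = 0.0153, limma). The call was lost without WT replicate 2 (adjusted p = 0.0511, limma) or 3 (adjusted p = 0.0507, limma) and with the methods' analysis of variance (adjusted p = 0.0614), and it held in 14 of 17 alternatives. *Snap25*, *Syt1* and *Dcx* were well above background on no array. The summed level ran from 47.1 to 50.3 in WT and from 48.8 to 57.6 in SIRT1 KO.

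Schwann cell genes beside *Sox10* had 3 calls, all higher, among 17 tested of 22 on the array, with 10 values above 0, 7 below and a median log2 fold change of 0.08. Over the brightest probe of all genes tested 3.69% were called higher, and among probes below a log2 signal of -1.5, where all 3 lie, 6.99% were. *Mag*, the myelin-associated glycoprotein, read -2.62, -2.62, -2.48 and -2.58 in WT and -1.76, -1.72, -1.62 and -1.84 in SIRT1 KO, with hearts of 1 genotype close together and no overlap. Its log2 fold change was 0.83 (SE 0.08, adjusted p = 0.00121, limma), and it was called in 17 of 17 alternatives. *Tfap2a*, a neural crest factor, read -5.41, -5.45, -5.20 and -5.75 in WT and -4.49, -4.33, -4.57 and -4.84 in SIRT1 KO, a log2 fold change of 0.89 (SE 0.14, adjusted p = 0.00853, limma), with 3 WT arrays and 4 SIRT1 KO arrays well above background. With normexp *Tfap2a* was at 0.49, and its call was lost with the methods' analysis of variance (adjusted p = 0.0514) alone of 16 alternatives. *Foxd3*, another neural crest factor, read -5.21, -4.81, -5.07 and -5.29 in WT and -4.61, -4.51, -4.30 and -4.52 in SIRT1 KO. Its log2 fold change was 0.60 (SE 0.12, adjusted p = 0.0225, limma), with 3 WT arrays and 4 SIRT1 KO arrays well above background. The *Foxd3* call was lost without WT replicate 1, 3 or 4 or SIRT1 KO replicate 2 (adjusted p 0.0558 to 0.0619, limma). It was also lost with quantile normalization (adjusted p = 0.116, limma), cyclic loess (0.0781), median scaling (0.0510), no scaling (0.0524), normexp (0.32, adjusted p = 0.0523), no filter and the methods' analysis of variance, and it held in 5 of 16 alternatives.

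The other 5 genes of the Schwann list, the neuregulin receptor *Erbb3*, the glial cadherin *Cdh19*, the glial filament *Gfap*, the transcription factor *Sox2* and the collagen *Col28a1*, were well above background on no array and were not tested. Below that mark the values of *Erbb3* and *Sox2* lay lower and those of *Gfap* higher in the hearts labelled SIRT1 KO, each without overlap, and no fold is given for them. Of all 12452 probes well above background on none of the arrays, 4.32% did not overlap between the genotypes. Among the tested genes *S100b* had a log2 fold change of 0.03 (SE 0.11, adjusted p = 0.888, limma), and was named after its value was seen. The summed level of the Schwann list ran from 18.02 to 21.39 in WT and from 16.27 to 20.02 in SIRT1 KO, with overlap, and was mostly that of the myelin gene *Pmp22*. Without *Pmp22* it was 5.78 to 7.37 in WT and 6.04 to 7.08 in SIRT1 KO, again with overlap. For the label, *Sox10* and *S100b* were present, as were *Phox2a*, *Stmn2*, *Elavl4* and *Tubb3* for the neurons. Below the well-above-background mark in whole hearts were *Erbb3*, *Cdh19* and *Gfap*, and *Th*, *Dbh* and *Prph* for the neurons. Of the 22 Schwann genes on the array, 14 were well above background on all 8 arrays.

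**Figure D5:**
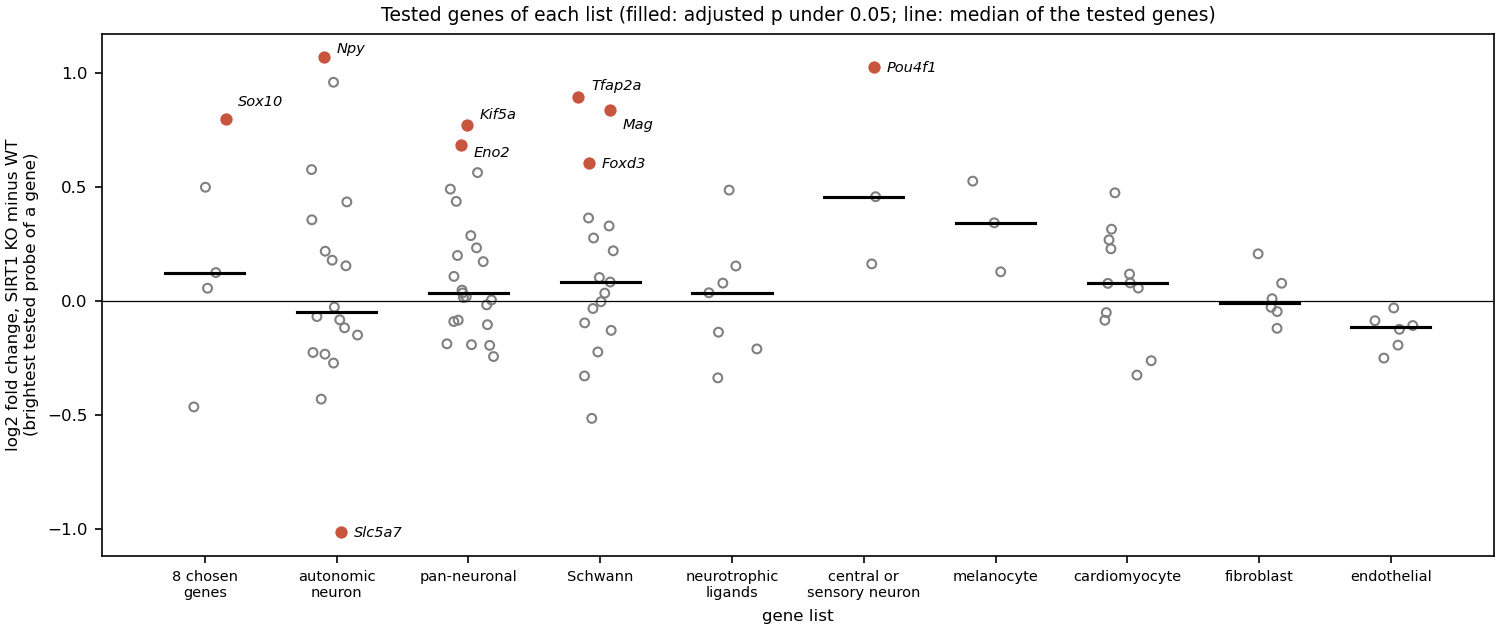
Log2 fold change, SIRT1 KO minus WT, of the brightest tested probe (y axis) of each tested gene in 10 gene lists (x axis). Filled and named points pass an adjusted p of 0.05, open points do not, and black lines are the medians of the tested genes, which lie between -0.12 and 0.12 except in the central or sensory neuron and melanocyte lists of 3 tested genes each.

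Among ligands that guide or feed these nerves, 7 of 10 genes were tested and none passed in limma, with 1 at an unadjusted p under 0.05. The smallest p-values belonged to *Edn1*, endothelin 1, at -0.34 on the log2 scale (adjusted p = 0.228, limma), and *Sema3a*, a repellent of sympathetic axons, with -0.21 (adjusted p = 0.299, limma).

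Genes of other nerve cells gave 1 call, higher and below a log2 signal of -1.5, where 6.99% of all probes were called higher. Of 10 central or sensory neuron genes on the array 3 were tested, and *Pou4f1*, a factor of sensory neurons, read -3.44, -3.62, -3.32 and -3.79 in WT and -2.22, -2.78, -2.38 and -2.68 in SIRT1 KO. Its log2 fold change was 1.03 (SE 0.15, adjusted p = 0.00609, limma), and it was called in 17 of 17 alternatives, at 0.61 with normexp. The transmitter genes *Slc17a6*, *Gad1* and *Gad2* were well above background on no array, *Slc17a7* was so on 1 array of each genotype, and *Slc32a1* on SIRT1 KO replicate 2 alone, at -2.90. The summed level of this list was 0.251 to 0.262 in WT and 0.367 to 0.511 in SIRT1 KO, without overlap, the highest sum being that of SIRT1 KO replicate 2. Without *Pou4f1*, the gene already called, the sum was 0.156 to 0.179 in WT and 0.160, 0.365, 0.203 and 0.211 in SIRT1 KO, and the genotypes overlapped. The part of this list in the *Tubb3*, *Kif5a* and *Eno2* values was not tested.

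Marker lists of other tissues gave the setting of these values. All 12 cardiomyocyte genes were tested and none was called in limma on its brightest probe, with 3 at an unadjusted p under 0.05, and their summed level ran from 1889 to 2091 in WT and from 1948 to 2279 in SIRT1 KO. The smallest p-values were those of the myosin gene *Myh7*, at a log2 fold change of 0.31 without overlap (adjusted p = 0.136, limma), of which 1 of 2 tested probes was called higher, and the titin gene *Ttn*, at 0.47 (adjusted p = 0.137, limma). None of the 6 endothelial, 6 fibroblast, 4 smooth muscle and 4 macrophage genes was called in limma, with 1 gene of each list at an unadjusted p under 0.05. The leading genes of these lists were *Tek* at -0.25 and *Kdr* at -0.19 (endothelial receptors), *Pdgfra* at 0.21 and *Col1a2* at -0.12 (fibroblasts), *Myh11* at -0.24 and *Cnn1* at -0.18 (smooth muscle), and *Cd68* at 0.64 and *Adgre1* at 0.11 (macrophages), with adjusted p between 0.127 and 0.752 in limma. The 3 tested liver genes had a median log2 fold change of 1.32 with none called, led by *Alb* at 1.32 (adjusted p = 0.323, limma) and *Apoa1* at 1.36 (adjusted p = 0.355, limma), and their list summed to 3.39 to 11.0 in WT and 4.01 to 48.1 in SIRT1 KO. Of 4 tested erythroid genes *Epor*, the erythropoietin receptor, was called, at 0.66 (adjusted p = 0.0154, limma), and *Lck* was the 1 thymus gene tested, at -0.70 (adjusted p = 0.0679, limma). None of the 5 lung genes could be tested.

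Within a genotype the tested genes did not follow each other as 1 group. Taken as deviations from the genotype means over the 8 arrays, *Stmn2* and *Tubb3* ran together, with Pearson's r = 0.91 and Spearman's rho = 0.88. *Phox2a* ran against both, with r = -0.79 for *Stmn2* and r = -0.81 for *Tubb3*, and *Sox10* was nearest to *Elavl4*, with r = 0.65. These 10 pairwise values are descriptions over 8 arrays that share 2 slides. Against the mean of *Phox2a* and *Stmn2*, the genes with the most similar pattern among 13531 searched were *Slc4a8*, *Snhg8*, *B130024G19Rik*, *Malt1* and *Lad1*, with r between 0.93 and 0.98. Leaving out the 2 arrays farthest from the median left r between 0.77 and 0.97. Since *Phox2a* and *Stmn2* run against each other, that mean follows neither gene alone.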

How the data were processed

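Hearts of 4 WT and 4 SIRT1 KO embryos were profiled on one-color Agilent mouse arrays. The authors deposited the intensity of each spot as written by Agilent Feature Extraction, background-subtracted and not scaled between arrays. The file headers name version 12.0.0.7, while the methods name an earlier one. The deposited series table held the same values in 100% of spots and was not fitted separately.

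After removal of control and outlier spots, spots of a probe were averaged, and log2 of the processed signal minus the 75th percentile of the array was taken. Probes were named by accession through RefSeq (GRCm38.p6), and 41079 of 41174 had a value on every array. Probes marked well above background on 4 or more of the 8 arrays were fitted with limma 3.58.1 in R 4.3.3 without covariates, with Benjamini-Hochberg adjustment. A gene of a list is given by its brightest tested probe. Each heart is 1 array, and 4 arrays per genotype limit the precision. On the WT arrays 24931 to 25747 probes were well above background, on the SIRT1 KO arrays 24489 to 26732, and no spot was saturated.

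In a simulation of 25615 probes in which 200 differed by a log2 of 1, the fit recovered 83.5%, and 2.34% of its calls were unchanged probes. Noise was drawn independently for each probe, with no slide or scan effect. The simulation therefore checks the fit only and gives no error rate for the calls in these hearts. Members and lists were chosen with earlier results of these data known. The text names every probe of the 8 genes, in each list the called genes (at most 4 in each direction) or the 2 with the smallest p where none passed, the 5 genes most like *Phox2a* and *Stmn2*, and *Sirt1*. Some genes of the lists are not reported here and stay out of the list counts. Genes named outside this rule are marked as such or are given as not well above background. Alternatives covered scaling, background correction, the filter, the methods' analysis of variance with genotype as its only factor, a replicate block, the probe of a gene and each array left out. Normexp (offset 50) was run on the median spot signal, a choice made after the data were seen, since no mean signal column was at hand. Scripts used Python 3.11.15, numpy 2.4.6, pandas 2.3.3 and matplotlib 3.10.9.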

Additional observations from a re-analysis of the deposited data

Results flagged for a closer look

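Single arrays stood far from the other 3 of their genotype in 5 of the 38 groups of 4 values examined, where chance marks about 1 in 20. *Elavl4* (A_51_P503722) read -2.22 in WT replicate 3, with the other WT hearts between -1.84 and -1.79. Its second probe (A_51_P503729) read -6.28 in WT replicate 4, with the others between -5.63 and -5.59. *Tubb3* (A_51_P381381) read -2.60 in WT replicate 2, with the others between -3.00 and -2.96. *Sox10* (A_52_P192625, not well above background) read -7.14 in WT replicate 4, with the others between -7.97 and -7.89. *Npy* (A_51_P454873) read -3.53 in SIRT1 KO replicate 2, with the others between -4.71 and -4.54.

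Outlier spots entered no value, and 3 of the *Th* spots among them were well above background. They lay on SIRT1 KO replicate 2, at 120 and 43.5 intensity units, and on SIRT1 KO replicate 4, at 23.4, above the brightest of the 40 WT spots of that probe at 15.5. The same SIRT1 KO replicate 2 was the array with the highest *Npy* value.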

How the results depend on the processing

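The directions of *Sox10*, *Tubb3* and *Elavl4* held in all 17 alternatives each, and the cause of changed calls was not tested. No filter, the filter on all 8 arrays, the analysis of variance and the block leave these fold changes unchanged by construction. For *Sox10* and *Elavl4*, whose genotypes do not overlap, leaving out 1 array cannot turn the sign. The *Sox10* call was lost with the methods' analysis of variance (0.80, adjusted p = 0.0795), and with 1 array left out its log2 fold change ran from 0.70 to 0.91. *Elavl4* passed with quantile normalization (-0.52), median scaling (-0.60), no scaling (-0.68) and the filter on all 8 arrays (-0.46), was -0.27 with normexp, and ran from -0.56 to -0.40 with 1 array left out. *Tubb3* passed with normexp (0.42), the filter on all 8 arrays (0.50) and the replicate block (0.50, adjusted p = 0.0362), was 0.28 without scaling, and ran from 0.44 to 0.59 with 1 array left out. The sign of *Phox2a* turned with quantile normalization (-0.12), median scaling (-0.078), no scaling (-0.16), cyclic loess (-0.088) and 1 array left out (-0.076 to 0.19, without WT replicate 2 or SIRT1 KO replicate 1). That of *Stmn2* turned with quantile normalization (-0.056), median scaling (-0.0089), no scaling (-0.10) and cyclic loess (-0.027), but not with 1 array left out (0.060 to 0.19). Median scaling and no scaling shift all probes alike, and relative to the median of all tested probes *Phox2a* stayed at 0.05 and *Stmn2* at 0.12 under both.

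Of the 5 tested probes 1 was called. This became 2 with quantile normalization, median scaling, no scaling, normexp and the block, 2 of 10 without a filter, 3 with the filter on all 8 arrays, 0 with the methods' analysis of variance (3 at an unadjusted p under 0.05), and 0 to 1 with 1 array left out, being 0 without WT replicate 4. Over all probes, 1250 calls became 1904 with median scaling, 6352 with no scaling, 2380 with normexp and 553 with the methods' analysis of variance, and 657 to 1825 with 1 array left out. The autonomic list had 2 calls, 1 with quantile normalization, 1 with cyclic loess, 7 with no scaling, 5 with normexp, 0 without a filter (limma, 5 at an unadjusted p under 0.05), 0 with the analysis of variance (5), and 0 to 2 with 1 array left out, being 0 without WT replicate 2, 3 or 4 (6, 5 and 7). The pan-neuronal list had 2, 4 with no scaling, 5 with normexp, 1 with the analysis of variance, and 1 to 4 with 1 array left out. The Schwann list had 3, and 1 with the analysis of variance. It also had 1 with the filter on all 8 arrays, where *Tfap2a* and *Foxd3* were not tested.

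Replicate numbers are shared by the genotypes, but samples with the same number correlated at 0.0562 to 0.207 and only 3 of 4 pairs exceeded 0.1, so they were not treated as pairs. Each of the 8 arrays correlated best with its own number, which is a hint from the data, not the design. With the replicate block 1185 probes were called. Normexp on the mean signal was not run. Most of the genes described lie near background, and signal over background limits what a single dim probe shows.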
